A study of Mus musculus with 2 samples.

Results

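Imprinted genes are expressed from only the maternal or only the paternal allele, and most lie in clusters governed by a differentially methylated region (DMR) whose methylation is laid down in the egg or the sperm. In the mouse, Dnmt1, the maintenance DNA methyltransferase, copies this methylation at each cell division, and imprints are kept through cleavage while much of the other gametic methylation is lost. A small group of genes is imprinted without gametic DNA methylation, through histone H3 lysine methylation inherited from the egg. The 53 imprinted genes on the list described here fall into 22 clusters or single loci. They were found by gene name in a deposited list of 8226 sites at which adenine methylation by a Dnmt1-Dam fusion exceeded that by Dam alone. By this rule 13 of the 53 genes had at least 1 peak, with 20 peaks in all. The transcript accessions in the list added 2 further genes and 4 peaks, namely Trappc9, listed under an older name, and Meg3, listed with no name. With these, 15 genes and 24 peaks were described, and 38 genes had none.

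Dam is a bacterial enzyme that methylates the adenine of GATC, so a protein fused to it leaves a mark on the DNA it visits. The compared embryos were injected with Dnmt1-V5-Dam, in which Dnmt1 carries a V5 tag and Dam, or with Dam alone. Both groups came from zygotes of hormone-primed females aged 5 weeks, of the strain BCF1 (C57BL/6 x CBA/CA). The strain of the males is not given, and no deletion of the embryos' own Dnmt1 is named. DNA of 50 embryos per group, at the 4- to 8-cell stage, was pooled into 1 library per group. There are therefore no replicates, no difference below has a replicate check, and no p-value was computed. The table gives no allele, so maternal and paternal copies cannot be told apart.

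A peak in the list has a position in build mm9, with no width, and a height in each library. Below, 16 against 5 stands for a height of 16 in Dnmt1-Dam and 5 in Dam-only. The smallest Dnmt1-Dam height listed is 7 and the smallest Dam-only height is 1. Neither a scaling of the heights nor a read total for either library is given in the labels. The depth is therefore unknown, and a gene without a peak cannot be called free of Dnmt1. Each peak carries 1 assigned gene, which can be far away. The proximal promoter class runs from 3 kb before the start site to 1 kb past it, and the distal promoter class from 10 to 3 kb before it.

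The share of imprinted genes with a peak could not be told apart from that of genes in general. Of the 48 with a messenger RNA accession, 13 (27.1%, exact 95% interval 15.3 to 41.8) had a peak by name and 14 (29.2%, 17.0 to 44.1) with accessions added, against 22.7% of the 21035 such genes. A peak inside the gene body was present at 8 of the 48 (16.7%, 7.48 to 30.2), against 11.7% of such genes. With peaks inside the body or within 10 kb of it the count was also 8, against 14.7%. All 3 background shares lie within the intervals. These shares were matched with accessions added, as were the counts of 14 and 8, but not that of 13. Of the 5 members that have only a noncoding RNA accession (H19, Airn, Kcnq1ot1, Meg3 and Peg13), Meg3 had a peak (20%, 0.505 to 71.6). Of the 5185 genes of that kind 1.02% did, a share within this interval. Only 62 peaks of the whole list were assigned to a noncoding accession.

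Peaks assigned to members were present in 11 of the 22 loci. They were found in 9 of the 11 clusters with several members and at 2 of the 11 loci with a single member. Of all genes with a messenger RNA accession, 22.7% had a peak. A cluster was counted if any of its members had a peak, so clusters with more members had more chances to be counted. The difference between clusters and single loci was not tested. The clusters without a peak assigned to a member were Igf2-H19 and that of Mest, Copg2 and Klf14. The single loci without a peak assigned to the member were Gab1, Gnas, Impact, Mcts2, Nap1l5, Nnat, Plagl1, Rasgrf1 and Zdbf2. Within the clusters that had peaks, no peak was assigned to Airn, Asb4, Calcr, Cdkn1c, Ddc, Dio3, Dlk1, Kcnq1, Kcnq1ot1, Magel2, Mkrn3, Peg10, Peg13, Phlda2, Rtl1, Sgce, Slc22a18, Slc22a2, Slc22a3, Snrpn, Tssc4, Ube3a, Zim1 and Zrsr1.

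**Figure D1:**
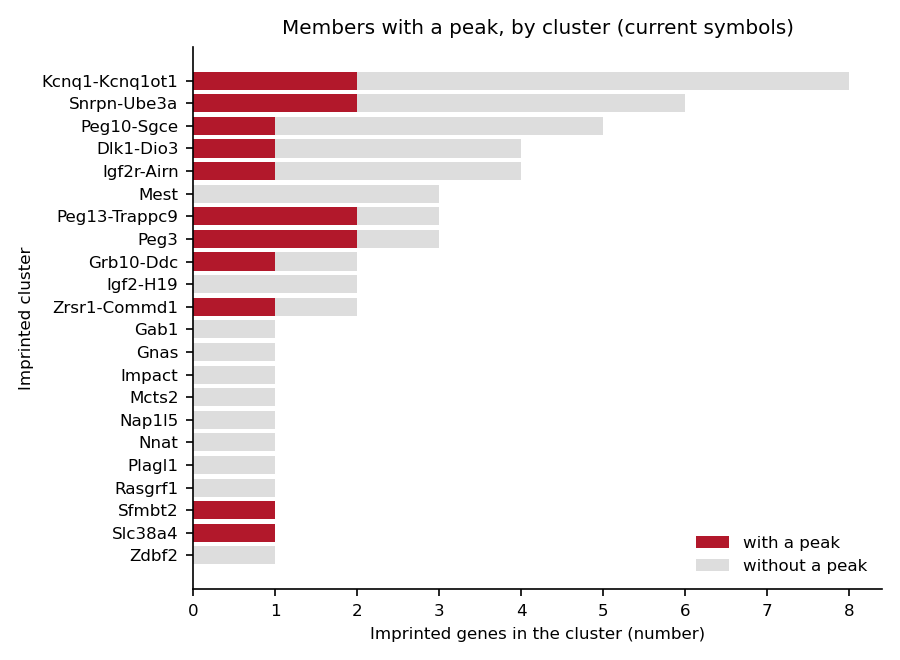
Number of imprinted genes with a peak (red) and without (grey) in each of the 22 clusters or single loci, with peaks matched by name and accession. The Kcnq1-Kcnq1ot1 cluster has a peak at 2 of 8 members and the Peg3 and Peg13-Trappc9 clusters at 2 of 3.

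None of the 24 peaks lay in a promoter class, and a count of 0 of 24 allows a share of up to 12.5%. Over all peaks the share was 6.73%, which lies below that limit, so a lower share at imprinted genes was not detectable. Counted by gene, 0 of the 48 members with a messenger RNA accession had a promoter peak, which allows up to 6.25%, against 2.42% of such genes, and none of the 5 noncoding members had one. The peak closest to a start site was that of Commd1, 2.94 kb downstream of it.

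The promoters of the members the results turn on are shown because Dam can mark only GATC and Dnmt1 acts at CpG. Each line is the 250 bases before a RefSeq start site of GRCm38.p6, a later build than that of the peaks, with every GATC and every CG in capitals. Peg3 and Usp29 share a promoter region and are transcribed away from each other, with listed start sites 322 bp apart in mm9, so these lines overlap on opposite strands. Igf2r and its antisense RNA Airn, and Kcnq1ot1, belong to loci governed by a gametic DMR. Commd1 had the peak nearest to its start site and Ppp1r9a the highest peak.
Peg3 (GRCm38.p6 chr7:6730420-6730669, minus strand): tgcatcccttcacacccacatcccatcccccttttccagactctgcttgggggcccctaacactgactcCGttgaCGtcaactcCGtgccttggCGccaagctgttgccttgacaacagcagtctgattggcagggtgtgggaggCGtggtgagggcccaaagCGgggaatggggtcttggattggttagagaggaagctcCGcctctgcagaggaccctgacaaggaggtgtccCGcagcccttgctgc
Usp29 (GRCm38.p6 chr7:6730333-6730582, plus strand): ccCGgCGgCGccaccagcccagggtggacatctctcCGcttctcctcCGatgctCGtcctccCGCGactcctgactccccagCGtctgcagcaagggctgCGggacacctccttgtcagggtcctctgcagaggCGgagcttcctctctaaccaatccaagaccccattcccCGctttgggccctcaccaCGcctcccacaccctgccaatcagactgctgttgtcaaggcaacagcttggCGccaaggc
Igf2r (GRCm38.p6 chr17:12769707-12769956, minus strand): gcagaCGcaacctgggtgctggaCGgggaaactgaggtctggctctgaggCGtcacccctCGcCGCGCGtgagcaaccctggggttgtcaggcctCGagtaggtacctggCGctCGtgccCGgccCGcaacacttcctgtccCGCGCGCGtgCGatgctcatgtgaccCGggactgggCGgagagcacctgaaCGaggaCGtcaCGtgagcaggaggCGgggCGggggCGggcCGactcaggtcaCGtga
Airn (GRCm38.p6 chr17:12741061-12741310, plus strand): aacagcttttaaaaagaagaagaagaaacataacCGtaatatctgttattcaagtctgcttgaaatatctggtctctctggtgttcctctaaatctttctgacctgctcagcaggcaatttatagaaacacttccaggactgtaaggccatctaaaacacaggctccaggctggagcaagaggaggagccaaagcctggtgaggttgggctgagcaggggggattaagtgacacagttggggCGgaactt
Kcnq1ot1 (GRCm38.p6 chr7:143296548-143296797, minus strand): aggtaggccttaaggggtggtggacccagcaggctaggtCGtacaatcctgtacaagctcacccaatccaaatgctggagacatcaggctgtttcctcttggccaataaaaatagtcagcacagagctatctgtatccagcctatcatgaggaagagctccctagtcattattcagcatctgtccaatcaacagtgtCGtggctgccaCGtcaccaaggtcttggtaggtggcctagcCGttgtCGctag
Commd1 (GRCm38.p6 chr11:22982285-22982534, minus strand): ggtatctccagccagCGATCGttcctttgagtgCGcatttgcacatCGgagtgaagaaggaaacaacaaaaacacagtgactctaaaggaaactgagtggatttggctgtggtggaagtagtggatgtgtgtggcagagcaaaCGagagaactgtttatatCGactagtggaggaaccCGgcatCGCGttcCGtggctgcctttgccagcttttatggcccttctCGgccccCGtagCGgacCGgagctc
Ppp1r9a (GRCm38.p6 chr6:4903061-4903310, plus strand): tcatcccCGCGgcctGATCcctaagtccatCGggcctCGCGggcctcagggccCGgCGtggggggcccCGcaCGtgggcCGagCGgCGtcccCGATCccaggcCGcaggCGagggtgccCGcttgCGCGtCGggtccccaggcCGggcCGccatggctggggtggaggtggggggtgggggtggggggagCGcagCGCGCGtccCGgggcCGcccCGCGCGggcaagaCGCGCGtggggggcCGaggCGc

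The first 5 of these windows hold no GATC, while the window shown for Commd1 holds 1 and that shown for Ppp1r9a 2. Their CG counts were 8 for Peg3, 14 for Usp29, 27 for Igf2r, 2 for Airn, 5 for Kcnq1ot1, 14 for Commd1 and 35 for Ppp1r9a. Commd1 and Ppp1r9a each have a further window, not shown, that holds no GATC. The CG counts of these further windows were 13 for Commd1 and 8 for Ppp1r9a. GATC reads the same on both strands and was searched without mismatch. RefSeq gave 65 promoter windows for 42 of the 53 members. Of these windows 23 (35.4%) hold a GATC, against 41.9% of all 32851 windows, and the median CG count was 10, against 6 over all windows. No window holds a GATC at 23 of the 42 members (54.8%), close to the 54.5% of all 27025 genes with a window. A window without GATC says only that these letters are not in it, since a peak can come from GATC outside.

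Heights at imprinted genes were in the usual range of the list. For the 20 peaks matched by name the median Dnmt1-Dam height was 9.5 (interquartile range 7 to 11.25, maximum 16), against 9 (7 to 11, maximum 202) over all peaks. With the 4 added peaks the median was 9. A height of 9 or more was reached by 13 of the 24 peaks (54.2%, 32.8 to 74.4), against 52.9% of all peaks, and a height of 15 or more by 1 (4.17%, 0.105 to 21.1), against 8.66%. The Dam-only height was 1 at 16 of the 24 (66.7%, 44.7 to 84.4), against 75.8%. Dnmt1-Dam heights were a median of 7 times the Dam-only heights, against 8 times over all peaks, and on the log2 scale, with heights scaled to their sums over the list, the medians were 0.04 and 0.20. Where the Dam-only height is 1 the ratio cannot be under 7, the lowest Dnmt1-Dam height listed. Scaling to the sums removes the general excess of Dnmt1-Dam heights over Dam-only heights, so the log2 medians only compare members with all peaks.

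**Figure D2:**
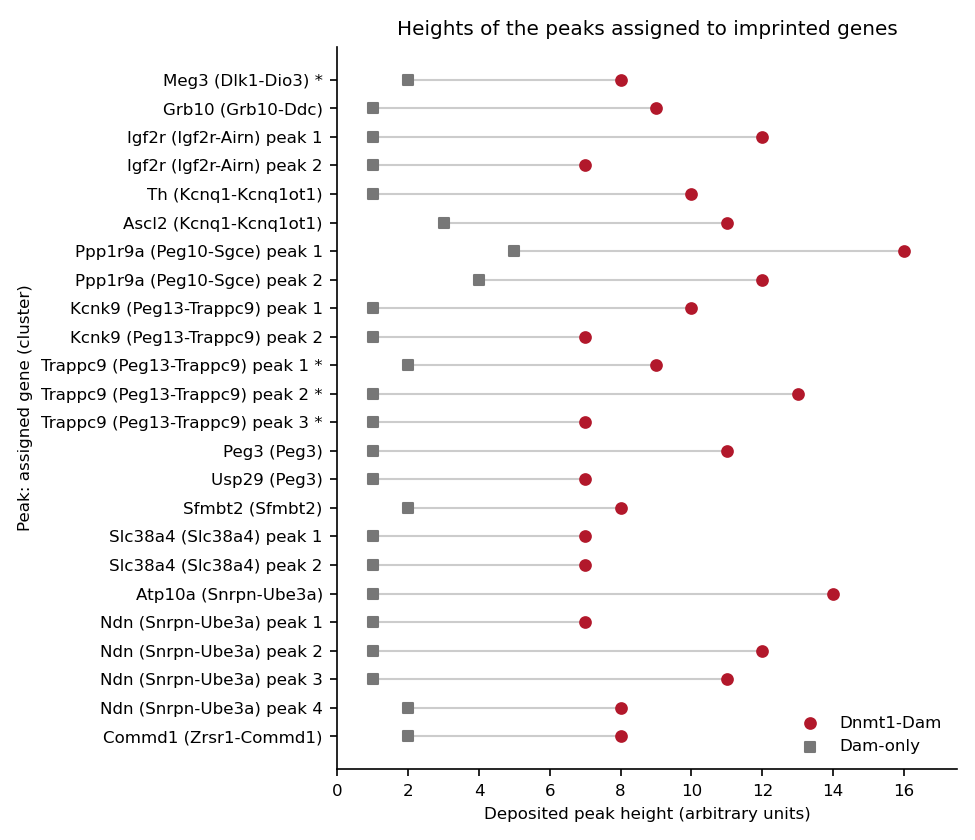
Deposited height of each of the 24 peaks in the Dnmt1-Dam library (red circles) and the Dam-only library (grey squares), 1 value per library. Asterisks mark the 4 peaks matched by accession; the Ppp1r9a peak at 16 against 5 is the highest in both libraries.

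The Peg10-Sgce cluster of chromosome 6 held the highest peak of any member. Its peaks belong to Ppp1r9a, a maternally expressed gene that encodes the actin-binding protein neurabin. A peak of height 16 in Dnmt1-Dam and 5 in Dam-only lay at 4788511, 64.8 kb upstream of the start site. A peak of 12 against 4 lay at 5008081 inside the gene (4853320 to 5115661), 155 kb downstream of the start site. Both stood in sequence with no named repeat. These are also the 2 highest Dam-only heights of the 24 peaks and the 2 lowest ratios, at 3.2 and 3.0. No peak was assigned to Peg10, a placental gene derived from a retrotransposon, or to Sgce, an epsilon-sarcoglycan gene that shares its DMR.

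The Snrpn-Ube3a cluster of chromosome 7, the mouse counterpart of the human Prader-Willi and Angelman region, held 5 peaks. Atp10a, a phospholipid-transporting ATPase gene, had a peak inside the gene at 66026251, in SINE sequence, of 14 against 1, the highest ratio of the 24 peaks. The other 4 were assigned to Ndn, which encodes the MAGE family protein necdin and has a body of 1.65 kb. They lay at 68793691 (7 against 1, in LTR sequence), 68800081 (12 against 1, in a LINE), 69201191 (11 against 1) and 69506731 (8 against 2). The last is 13.6 kb downstream of the Ndn start site, while the others are 292 to 699 kb upstream, so only the last is close to the gene. Those 2 farthest away are 6.39 kb apart.

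Trappc9, a trafficking complex subunit gene in an intron of which the imprinted noncoding RNA Peg13 lies, held the most peaks inside a gene. The 3 peaks on chromosome 15 were at 72430511 (9 against 2, in a LINE), 72498291 (13 against 1) and 72741701 (7 against 1), within a body of 466 kb (72420050 to 72886240). Kcnk9, a potassium channel gene of the same cluster, was assigned 2 peaks 4.67 kb apart, at 72102121 (10 against 1) and 72106791 (7 against 1). Both are more than 100 kb outside that gene, 240 and 236 kb past its end. No row names Peg13.

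At Igf2r, the maternally expressed clearance receptor for the growth factor Igf2, a peak of 12 against 1 lay inside the gene on chromosome 17 at 12891161, 71.4 kb downstream of the start site in a body of 87.3 kb. A lower peak of 7 against 1 lay in a SINE at 12986381, 23.8 kb upstream of the start site. No peak was assigned to Airn, the paternally expressed RNA that silences Igf2r in the mouse, nor to the organic cation transporter genes Slc22a2 and Slc22a3. By the windows shown above, Airn starts inside Igf2r and is transcribed toward the Igf2r start site. The end of Airn in the build of the peaks was not read, so whether the upstream peak lies within Airn is not known.

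The Peg3 cluster of proximal chromosome 7 had a peak inside each of its paternally expressed members. Peg3, a zinc finger gene, had 11 against 1 at 6664481, 18.6 kb downstream of the start site. Usp29, a ubiquitin peptidase gene, had 7 against 1 in LTR sequence at 6765881, 82.4 kb downstream of its own. The peaks are 101 kb apart on either side of the shared promoter region, in which no peak was listed. Zim1, a maternally expressed zinc finger gene, had none.

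On distal chromosome 7 the Kcnq1-Kcnq1ot1 domain held 2 peaks for 8 members. The peak assigned to Th, the tyrosine hydroxylase gene, was 10 against 1 in LTR sequence at 150060161, 18.5 kb past the end of the gene. That assigned to Ascl2, a trophoblast transcription factor gene, was 11 against 3 at 150131171, 21.6 kb past its end. No peak was assigned to Kcnq1, to Kcnq1ot1, the antisense RNA that silences the domain on the paternal allele, or to the growth-limiting genes Cdkn1c and Phlda2. In the adjoining Igf2-H19 cluster neither Igf2 nor H19 had a peak. Of nearby genes that are not members, Ins2 was assigned 10 against 4, 2.9 kb past the end of the gene. Tnnt3 had 7 against 1 in its proximal promoter, 0.567 kb upstream of the start site.

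The remaining peaks stood at 5 further loci. Meg3, a maternally expressed noncoding RNA of the Dlk1-Dio3 cluster, had 8 against 2 in low-complexity sequence on chromosome 12 at 110799681, 0.236 kb before the end of the listed transcript. Commd1, in an intron of which the retrogene Zrsr1 lies, had 8 against 2 in a SINE on chromosome 11 at 22879341. Grb10, an adaptor gene of insulin receptor signalling, was assigned a peak of 9 against 1 on chromosome 11 at 12071941, 135 kb upstream of its start site. Sfmbt2, a Polycomb gene needed in trophoblast, was assigned 8 against 2 on chromosome 2 at 10187881, 106 kb upstream. Slc38a4, an amino acid transporter gene, had 2 peaks of 7 against 1 on chromosome 15. The peak at 96712941 is 112 kb past the end of the gene and is the only peak of the 24 with a CpG island context, a shelf. The peak at 96832531 is inside the gene. Sfmbt2 and Slc38a4 are 2 of the 3 members classed here as imprinted without gametic DNA methylation, and the third, Gab1, had no peak. This class was set when the list was made and was not tested with these data.

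By location, 11 of the 24 peaks (45.8%, 25.6 to 67.2) were inside gene bodies and 13 (54.2%, 32.8 to 74.4) were intergenic, against 42.5% and 50.8% of all peaks. By deposited name alone it was 7 of 20 (35.0%, 15.4 to 59.2) and 13 of 20 (65.0%, 40.8 to 84.6). Of the 11 peaks inside a gene, 8 were nearer to its end than to its start (72.7%, 39.0 to 94.0), against 53.5% of the 3492 gene body peaks of the list, a share within the interval. Of the 13 outside, 7 were upstream and 6 downstream. The distance from the start site had a median of 94.4 kb by name and 110 kb with accessions, against 60.4 kb over all peaks. Peaks more than 100 kb outside the assigned gene numbered 8 (33.3%, 15.6 to 55.3), against 23.1%.

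**Figure D3:**
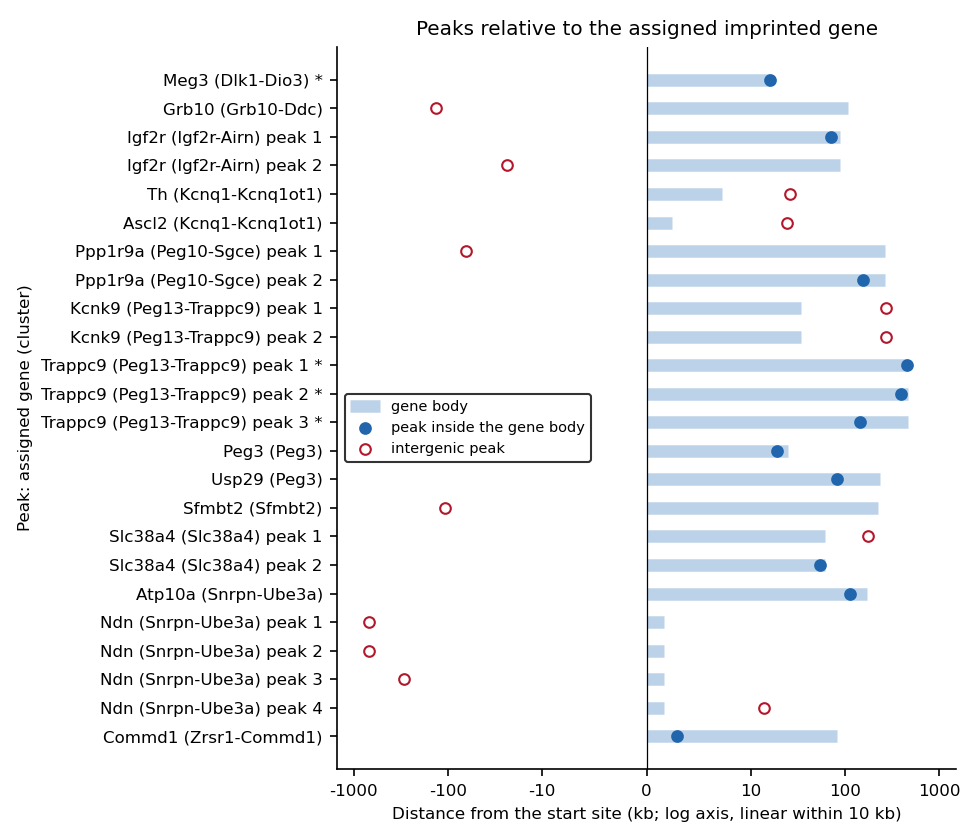
Position of each of the 24 peaks relative to the start site of its assigned gene, in kb along the direction of transcription on an axis that is logarithmic beyond 10 kb, with the gene body as a blue bar. Filled circles are the 11 peaks inside a gene and open circles the 13 intergenic peaks; asterisks mark the 4 peaks matched by accession.

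Repeats were named at 9 of the 24 peaks (37.5%, 18.8 to 59.4), against 39.5% of all peaks, and none at 15 (62.5%, 40.6 to 81.2), against 60.5%. SINEs were named at 3 (12.5%, against 17.1%), LTR elements at 3 (12.5%, against 10.8%) and LINEs at 2 (8.33%, against 8.18%). The LTR peaks were those of Th, Usp29 and the farthest peak of Ndn. A CpG island context was named at 1 peak (4.17%, 0.105 to 21.1), against 6.61%. Every interval contains the share over all peaks.

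**Figure D4:**
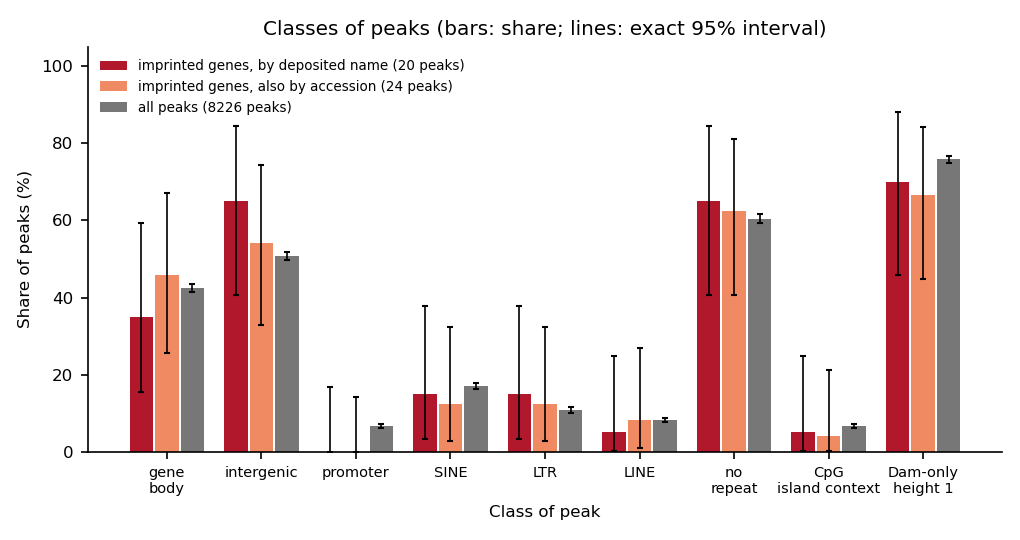
Share of peaks in each class for imprinted genes by deposited name (red, 20 peaks), for imprinted genes also by accession (orange, 24 peaks) and for all 8226 peaks (grey), with exact 95% intervals that cover counting error only. The grey share lies within the red and orange intervals in each of the classes drawn.

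Grouped by the allele they are expressed from, 10 of 24 maternally expressed members had a peak (41.7%, 22.1 to 63.4) and 5 of 28 paternally expressed members (17.9%, 6.06 to 36.9). Gnas, which is imprinted in both directions, is in neither group. By name alone it was 8 of 24 and 5 of 28. By name and with only peaks at a Dam-only height of 1, it was 5 of 24 and 4 of 28. The intervals overlap and the difference was not tested. The 22.7% of genes with a messenger RNA accession that had a peak lies within both intervals, near the lower bound of that for maternally expressed members. Both groups also include noncoding members. The Dnmt1-Dam heights had a median of 10 over the 15 peaks of maternally expressed members and 8 over the 9 peaks of paternally expressed members. Of the 25 members classed as at a gametic DMR, 7 had a peak with accessions added (28.0%, 12.1 to 49.4) and 5 by name. Of the 25 classed as at no DMR themselves, 6 had a peak (24%, 9.36 to 45.1). The 22.7% lies within both of these intervals too. The median Dnmt1-Dam height was 8.5 over the 10 peaks assigned to members at a gametic DMR. It was 11 over the 11 peaks assigned to members classed as at no DMR. This class was set gene by gene, so a member at no DMR can still lie in a cluster governed by one. No DMR positions were used, so no peak was placed relative to a DMR.

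Of 41 other genes reported as imprinted, 11 had a peak (26.8%, 14.2 to 42.9), against the 22.7% of genes with a messenger RNA accession, which some of these lack. Cobl, the neighbor of Grb10 that encodes an actin nucleator, held 6 peaks on chromosome 11. The highest were 16 against 1 at 12355571, in LTR sequence inside the gene, and 16 against 3 at 12497371, in a SINE 132 kb upstream. Ampd3, an AMP deaminase gene, had a highest peak of 13 against 1, 16.6 kb upstream of the start site, and a distal promoter peak of 10 against 1. Jade1, a histone acetylation factor gene, and Pde10a, a phosphodiesterase gene, were each assigned a highest peak of 12 against 1. These lay outside the genes, 287 kb upstream of the Jade1 start site and 44.6 kb upstream of that of Pde10a. Of 28 factors that set or keep imprints, 9 had a peak (32.1%, 15.9 to 52.4), and the 22.7% lies within this interval. The highest was 16 against 1 at Dnmt1 itself. Dnmt3a, which lays down methylation in germ cells, had a highest peak of 10 against 2, 15.6 kb upstream of the start site. The histone demethylase gene Kdm1b had 10 against 1 inside the gene. The histone methyltransferase gene Setdb1 was assigned 10 against 1, 30.5 kb upstream of its start site. Dppa3, another of these factors, was assigned a peak of 9 against 1, 28.4 kb outside the gene. No peak was assigned to Zfp57, Trim28 or Uhrf1, whose products recruit or guide Dnmt1 to methylated DNA. These were picked from the factors without a peak after the values were seen.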

How the data were processed

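The members and gene lists were chosen with earlier results of these data known. The submitters' processing notes name CASAVA, BWA and build mm9. The peak caller is not given in the sources used here, nor are its thresholds and the treatment of duplicate reads. The authors deposited 1 table with a signal height per library for each peak, as whole numbers. These were treated as signal, not as counts. Per the labels, libraries had 15 cycles of PCR and fragments around 300 bp. Members were matched by deposited gene name, and in addition by transcript accession in a RefSeq table of GRCm38.p6, which gave a symbol to 8193 of the 8226 peaks. Distances were computed from the deposited gene coordinates, and the location classes followed from them at 8226 peaks. The log2 ratio used a pseudocount of 1 after scaling each library to the mean of the 2 sums. Intervals are exact Clopper-Pearson at 95% and cover counting error only, and a count of 0 was read as allowing 3. Named were all members with a peak and, of each other list, the 4 genes with the highest peak; others named are chosen after their values were seen. Calculations used Python 3.11.15, pandas 2.3.3 and scipy 1.17.1, and the interval and ratio steps were tested on simulated data.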

Additional observations from a re-analysis of the deposited data

How the results depend on the processing

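Of 135 recalculated values, 89 stayed within the main interval or spread, or within 1.5 times the main count, and 46 moved. The matching by name is the main setting for members, and no value moved when accessions were added. No paired analysis was possible because each group is 1 library. With height 9 or more there were 11 peaks, 0% in CpG island context, 3 members at a gametic DMR, 2 paternally expressed members, 33 neighbouring genes and 5 maintenance factors. With height 15 or more 1 member with 1 peak was left, maternally expressed, so the median height was 16, the scaled log2 ratio -1.0, 100% were intergenic, and gene body, repeat, CpG island and Dam-only height of 1 shares were 0%, as were members at a gametic DMR (0) and paternally expressed members (0), with 7 neighbouring genes, 1 other imprinted gene and 1 maintenance factor. Among peaks at a Dam-only height of 1, that share is 100% by construction, and 5 maternally expressed members had a peak, beside 4 paternally expressed members. With peaks inside the body, 7 members had 7 peaks, 100% in gene bodies and 0% intergenic by construction, 0% in CpG island context, with 4 maternally and 3 paternally expressed members, 22 neighbouring genes and 5 other imprinted genes. With 10 kb added these were the same except for 29 neighbouring genes and 6 other imprinted genes. Within 100 kb there were 12 peaks, 0% in CpG island context. Unscaled, the median log2 ratio was 2, against 0.04. With 0 flanking genes 2 neighbouring genes had a peak and with 10 flanking genes 95, against 53 with 5, as fewer or more genes are counted. Other shifts follow from fewer peaks being counted. Unknown depth limits what the absence of a peak means.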

Other observations

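Genes that lie between the outermost members of a cluster, or within 5 genes of them by RefSeq order, numbered 180 with a messenger RNA accession. Of these 53 had a peak (29.4%, exact 95% interval 22.9 to 36.7), against 22.7% of genes in general, matched in the same way, a share that lies just below this interval. By deposited gene name alone, 45 of the 180 had a peak (25%, 18.9 to 31.99). Adjacent genes are not independent of each other. Of these neighbours Cobl, Ins2 and Plg are also among the other imprinted genes above. With peaks inside the gene body 22 of 180 had one (12.2%, 7.82 to 17.9), against 11.7%. Of the 15 genes between members 2 had a peak (13.3%, 1.66 to 40.5), and the 22.7% lies within this interval. Trpm5, a cation channel gene of the Kcnq1-Kcnq1ot1 domain, had 2 peaks inside the gene, of 8 and 7 against 1. Bet1 was assigned 1 of 7 against 1, 194 kb upstream of its start site. These genes were named after their values were seen.

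Domain borders were not read, but the highest neighbouring peaks were assigned to genes beyond the outermost listed members by RefSeq order. That assigned to Usp38, beside Gab1, was 47 against 1 at 10.4 kb upstream of the start site. That of Dync1h1, a dynein heavy chain gene beyond Dio3, was 28 against 1 at 11.7 kb upstream. Oca2, a melanosome protein gene beyond the GABA receptor genes next to Atp10a, had 25 against 1 inside the gene. Zfp521, a zinc finger gene near Impact, was assigned 19 against 1, 257 kb past the end of the gene. None of the 10 neighbours of the Peg3 cluster had a peak, where 22.7% of genes with a messenger RNA accession did. These 10 were not limited to such genes, and of genes with only a noncoding RNA accession 1.02% had a peak. A count of 0 was read as allowing 3 of the 10, so a lower share was not detectable.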
